A study of Homo sapiens with 10 samples.

Results

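The zinc finger genes of chromosome 19 are described here across 4 RNA libraries of Kasumi-1, a human myeloid leukemia cell line that carries the t(8;21) translocation. A gene was taken as a member when its name in the deposited table was ZNF followed by a number and at most 1 letter and its locus lay on chromosome 19, a rule that itself uses no expression value. This gave 262 of the table's 50868 genes, of which 14 had names ending in P, the usual mark of a pseudogene. The groups were cells transduced with HA-tagged E2-2, cells transduced with HA-tagged E2A, cells transduced with HA-tagged HEB, and control cells that received the empty MIGR1 vector. Each group was 1 library, made from GFP-positive cells sorted 4 days after retroviral infection, so all 4 groups share the cell line, the virus backbone and the sort. Being a single cell line, Kasumi-1 stands for 1 leukemia, and no group was an uninfected culture. E2-2, E2A and HEB are the E proteins, basic helix-loop-helix transcription factors that bind the DNA motif called an E-box, and in t(8;21) leukemia they sit in the complex of the fusion protein AML1-ETO. The study asked whether the 3 factors act differently there. ChIP-seq libraries of the same series were not analysed here.

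Most ZNF genes encode proteins with a row of zinc fingers, small zinc-bound loops that each read a few bases of DNA. Many also carry a KRAB domain, which recruits the corepressor TRIM28, and through it the histone methyltransferase SETDB1 and heterochromatin proteins, to the bound site. The family grew by tandem duplication, largely on chromosome 19, where the genes lie side by side in clusters, and many of its members bind transposable elements. The clusters are themselves known to be packed in chromatin that carries repressive histone methylation.

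Expression was measured as read counts per gene, with levels in CPM, counts scaled to a library of 1000000 by the TMM method. The libraries held 14816708 counts for E2-2, 17673090 for E2A, 16791922 for HEB and 15728974 for vector. The transduced gene led in its own library: TCF4, which encodes E2-2, had 823 CPM in E2-2 cells against 0.256 CPM in vector cells. TCF3, which encodes E2A, had 1310 CPM in E2A cells against 252 CPM in vector cells. TCF12, which encodes HEB, had 836 CPM in HEB cells against 165 CPM in vector cells. The fusion partner RUNX1T1 (146 to 207 CPM), KIT (626 to 770 CPM) and MPO (11254 to 18014 CPM), which are markers of these cells, were present in every library, as were CD33, CD34, AZU1 and POU4F1, the rest of a list of 7. CD33, a myeloid surface antigen, had 115 CPM with E2-2, 85.7 CPM with E2A and 90.0 CPM with HEB, against 28.3 CPM with vector, and was called higher in all 3 comparisons. CD34, a progenitor surface antigen, stood 1.53-fold, 1.69-fold and 1.95-fold below vector with E2-2, E2A and HEB, and the granule gene AZU1 1.93-fold below with E2-2. Among markers of other cell types, erythroid HBB had 0 reads in all 4, which allows up to 3 reads or 0.170 to 0.198 CPM. Epithelial EPCAM had 622 reads with E2-2, 854 with E2A, 675 with HEB and 871 with vector. The fibroblast gene COL1A1, from the same list as EPCAM, had 6, 3 and 1 reads with E2-2, E2A and HEB and 4 with vector. The T cell gene CD3D had 2, 10 and 15 reads with E2-2, E2A and HEB against 34 with vector, and was called lower in all 3 comparisons. The part of these marker differences in the results below was not tested.

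The 262 genes together took 0.287% of the counts in E2-2 cells, 0.281% in E2A cells, 0.288% in HEB cells and 0.315% in vector cells. Their summed level was 2804 CPM with E2-2, 2814 CPM with E2A, 2923 CPM with HEB and 3174 CPM with vector, so the vector library had the highest sum. The median member held 83 reads with E2-2, 96 with E2A, 91.5 with HEB and 90.5 with vector. No read was found in any library for 10 members: ZNF625, ZNF209P, ZNF849P, ZNF728, ZNF730, ZNF681, ZNF223, ZNF613, ZNF350 and ZNF818P. A further 66 held 1 to 29 reads over the 4 libraries, 186 held 30 or more, and 66 of these held 1000 or more. The member with most reads was ZNF146, which encodes a protein made of zinc fingers with no KRAB domain, at 2484 reads in E2-2 cells, 3328 in E2A cells, 3595 in HEB cells and 3576 in vector cells. In bulk RNA such as this, fewer cells that express a gene and less RNA per cell cannot be told apart.

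With 1 library per group, no difference below has a replicate check, and no p-value is given. A fold is the ratio of scaled counts, and its 95% exact interval covers counting error only. A member counted as measured in a comparison when the pair of libraries held at least 30 reads, and was called when its fold was also at least 2 with an interval that excluded 1. Of the 262 members, 181 were measured in at least 1 of the 6 comparisons, and 81 in none; the largest count of any of these 81 in a single library was 19. Reads of overlapping genes may be mixed, since the strand setting of the counting is not given in the sources used here, and 188 of the 262 members overlap another gene of the table.

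With E2-2, few zinc finger genes differed from vector by 2-fold, and most of the measured ones had fold values slightly below 1. Of 177 measured members, 4 were called higher (2.26%), where 8.45% of all measured genes were called higher. Another 5 were called lower (2.82%), where 3.55% of all measured genes were. The median log2 fold of the members was -0.22, against -0.03 over all 13884 measured genes, and 70.1% of the members were below 0. With the interval alone as the criterion and no fold threshold, 17 members lay above their vector level (9.6% of those measured, against 27.3% of all genes). Another 68 lay below it (38.4%, against 30.8% of all genes). Members had wider intervals, reaching about 0.32 log2 to each side at the median, against 0.21 over all genes. A wider interval excludes 1 less often, which limits every comparison of such shares with those of all genes. The part of interval width in the low share above vector was not tested. At a fold of at least 1.5 with an interval that excluded 1, 9 members were higher (5.08%, against 13.5% of all genes) and 19 lower (10.7%, against 9.43%).

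The 4 members called higher with E2-2 were ZNF816, ZNF799, ZNF491 and ZNF568. Of these, ZNF816 and ZNF568 reached the 30-read minimum only through their E2-2 counts, so they could enter the comparison only by being high there. ZNF816 (chromosome 19, 52949379 to 52962911) had 25 reads in E2-2 cells, 25 in E2A cells, 10 in HEB cells and 7 in vector cells. Its E2-2 and E2A levels stood apart from those of HEB and vector, and E2-2 was 3.67-fold above vector (interval 1.54 to 10.1). The gene overlaps the annotated readthrough ZNF816-ZNF321P, so its few reads are uncertain. ZNF799 (12390016 to 12401271) had 127 reads in E2-2 cells, 115 in E2A cells, 85 in HEB cells and 62 in vector cells. The levels were 8.37, 6.51 and 5.14 CPM in E2-2, E2A and HEB cells and 3.97 CPM in vector cells, with E2-2 2.11-fold above vector (1.54 to 2.9). ZNF491 (11797667 to 11809622) lies in the same cluster as ZNF799 and had 43 reads in E2-2 cells, 44 in E2A cells, 25 in HEB cells and 21 in vector cells. Its E2-2 level was 2.11-fold above vector (1.22 to 3.74). ZNF568 (36916329 to 36998700), a KRAB gene whose mouse counterpart represses a placental transcript of Igf2, had 22, 15 and 1 reads in E2-2, E2A and HEB cells and 9 in vector cells. E2-2 was 2.51-fold above vector (1.11 to 6.2), and the single read in HEB cells made HEB the lowest library.

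The 5 members called lower with E2-2 were ZNF571, ZNF221, ZNF429, ZNF497 and ZNF682. ZNF571 (37554782 to 37594790) had 62 reads in E2-2 cells, 94 in E2A cells, 93 in HEB cells and 144 in vector cells. All 3 E protein libraries were under the vector library, with E2-2 2.26-fold lower (1.67 to 3.09), and the gene overlaps ZNF540 and ZNF571-AS1. ZNF221 (43951223 to 43967709), which overlaps no other gene of the table, had 26 reads in E2-2 cells, 36 in E2A cells, 32 in HEB cells and 62 in vector cells. E2-2 was 2.32-fold lower than vector (1.44 to 3.82). For ZNF429 (21496682 to 21556270), the counts were 27 in E2-2 cells, 29 in E2A cells, 27 in HEB cells and 62 in vector cells. The 3 E protein libraries lay close together here and below the vector library, with E2-2 2.23-fold lower (1.4 to 3.65). ZNF497 (58354357 to 58362848), which overlaps the antisense gene A1BG-AS1, had 22, 24 and 32 reads in E2-2, E2A and HEB cells and 50 in vector cells. E2-2 was 2.21-fold lower than vector (1.31 to 3.83). ZNF682 (19997058 to 20039506) had 18, 30 and 24 reads in E2-2, E2A and HEB cells and 40 in vector cells, with E2-2 2.16-fold lower (1.21 to 4.00).

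**Figure D1:**
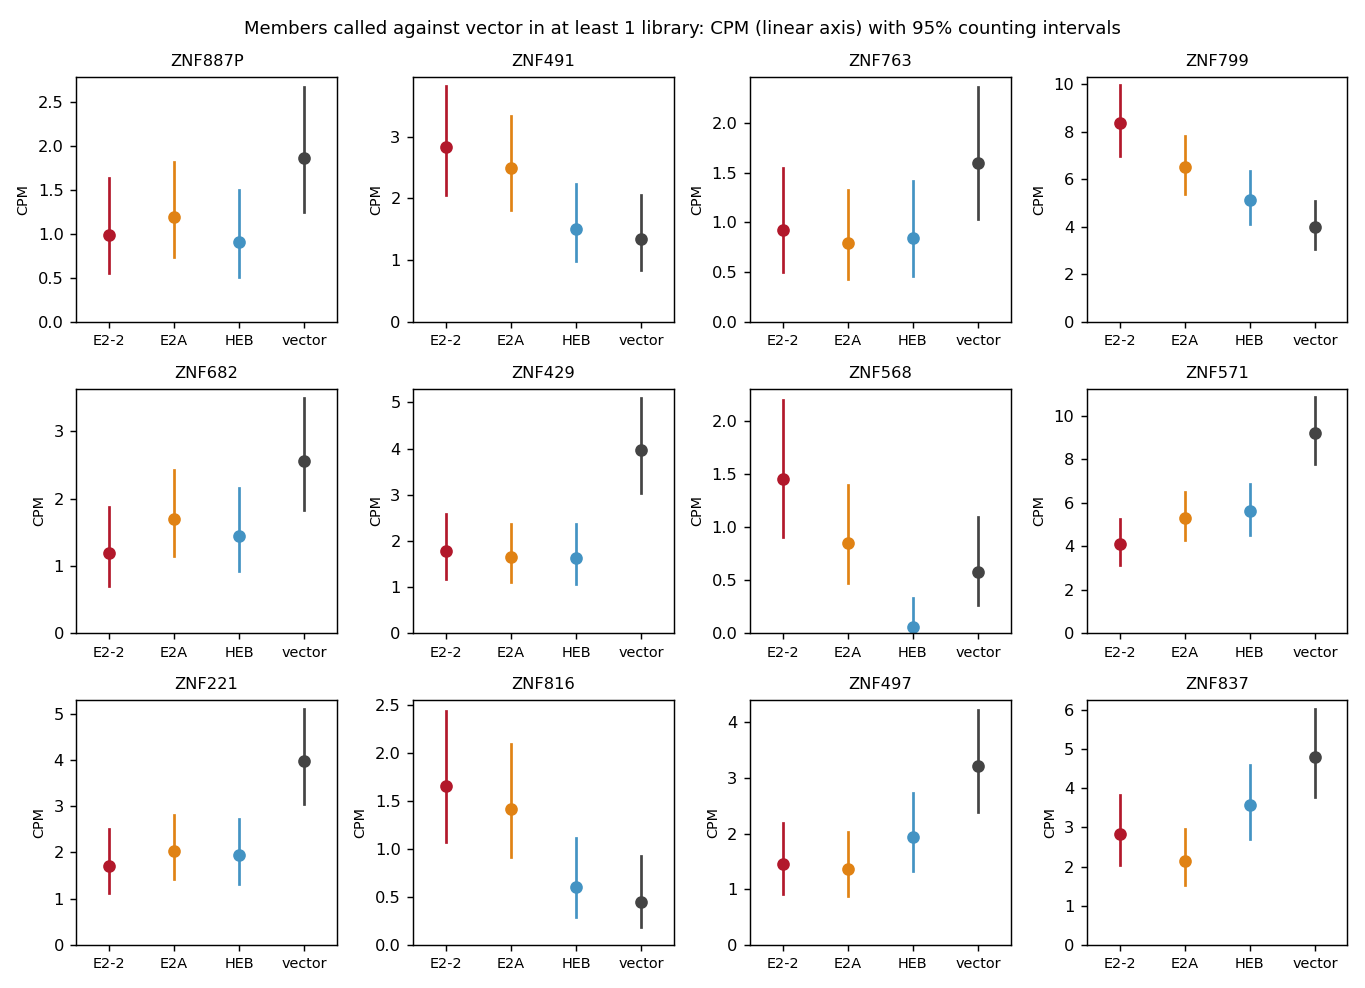
Level in CPM (y axis, linear, from 0) of the 12 members called in a comparison with vector, 1 panel each, with 1 point per library (x axis, E2-2, E2A, HEB, vector) and bars for the 95% counting interval. ZNF816 and ZNF799 are highest with E2-2 and lowest with vector, while for ZNF429 the 3 E protein libraries group together under the vector library.

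The promoters of 4 of these genes are shown because E proteins bind E-boxes, whose letters are CANNTG. ZNF816 and ZNF799 were called higher with E2-2, and ZNF429 and ZNF497 were called lower with E2-2. Each sequence is the RefSeq promoter of GRCh38.p14, 250 bases before to 50 after the gene's start, read 5′ to 3′ on the gene's strand, with every CANNTG in capitals. ZNF816 is at chr19:52962832-52963131 on the minus strand, ZNF799 at chr19:12401222-12401521 on the minus strand, ZNF429 at chr19:21505352-21505651 on the plus strand and ZNF497 at chr19:58362702-58363001 on the minus strand. The ZNF429 window lies inside the gene as the deposited table places it, not at that gene's first base (21496682).
ZNF816: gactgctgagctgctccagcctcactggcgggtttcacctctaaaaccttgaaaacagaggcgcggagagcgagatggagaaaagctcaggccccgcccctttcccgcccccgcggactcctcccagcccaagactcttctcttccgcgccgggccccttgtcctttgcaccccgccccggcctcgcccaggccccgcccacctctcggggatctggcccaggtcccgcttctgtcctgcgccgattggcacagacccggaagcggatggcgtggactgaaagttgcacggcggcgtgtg
ZNF799: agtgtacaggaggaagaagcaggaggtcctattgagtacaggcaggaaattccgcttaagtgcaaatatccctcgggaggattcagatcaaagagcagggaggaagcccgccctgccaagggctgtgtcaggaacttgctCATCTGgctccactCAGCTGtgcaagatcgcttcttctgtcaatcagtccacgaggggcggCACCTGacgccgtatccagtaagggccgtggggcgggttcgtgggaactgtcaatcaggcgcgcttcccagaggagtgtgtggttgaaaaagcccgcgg
ZNF429: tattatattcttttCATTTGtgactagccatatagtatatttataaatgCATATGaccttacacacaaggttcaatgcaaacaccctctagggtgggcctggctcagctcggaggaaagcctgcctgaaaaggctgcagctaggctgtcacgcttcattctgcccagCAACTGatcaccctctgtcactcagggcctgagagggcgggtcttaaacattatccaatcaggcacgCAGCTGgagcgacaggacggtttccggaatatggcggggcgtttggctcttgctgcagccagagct
ZNF497: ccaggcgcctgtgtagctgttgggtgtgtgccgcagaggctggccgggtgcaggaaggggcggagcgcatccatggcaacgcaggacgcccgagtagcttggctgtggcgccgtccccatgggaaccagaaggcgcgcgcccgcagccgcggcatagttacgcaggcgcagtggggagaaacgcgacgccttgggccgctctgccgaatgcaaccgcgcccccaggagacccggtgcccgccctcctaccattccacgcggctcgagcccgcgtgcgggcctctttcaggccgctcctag
The ZNF799 window holds 3 E-boxes, of which 1 is CAGCTG and 1 is CACCTG, and the ZNF429 window holds 4, of which 1 is CAGCTG. The ZNF816 and ZNF497 windows hold none. No rule was set for choosing these 4 genes, so nothing can be read from how E-boxes divide among them. Of the other members called with E2-2, ZNF491 and ZNF568 on the higher side hold 1 E-box each. ZNF682 on the lower side holds 2, and no promoter was found for ZNF571 and ZNF221.

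Below the 2-fold threshold, members with deeper counts had tighter intervals and smaller folds. ZNF611 (52702813 to 52735073), which overlaps no other gene of the table, had 310 reads in E2-2 cells, 287 in E2A cells, 260 in HEB cells and 178 in vector cells. E2-2 was 1.79-fold above vector (1.48 to 2.17), the widest spread between highest and lowest library among the 66 members with 1000 or more reads. ZNF439 had 361, 315 and 275 reads in E2-2, E2A and HEB cells and 216 in vector cells, or 1.72-fold with E2-2 (1.45 to 2.04). Both had their highest level with E2-2 and their lowest with vector. ZNF333 stood at 1.70-fold (1.43 to 2.03), ZNF235 at 1.71-fold (1.2 to 2.48), ZNF443 at 1.63-fold (1.24 to 2.14), ZNF671 at 1.36-fold (1.12 to 1.64) and ZNF780A at 1.31-fold (1.12 to 1.53). On the lower side, ZNF544 had 633 reads in E2-2 cells, 906 in E2A cells, 862 in HEB cells and 1038 in vector cells, with E2-2 1.59-fold below vector (1.44 to 1.76). ZNF607 was 1.75-fold below vector with E2-2 (1.35 to 2.27), ZNF580 1.66-fold (1.33 to 2.09), ZNF627 1.5-fold (1.31 to 1.73), ZNF121 1.41-fold (1.29 to 1.56) and the abundant ZNF146 1.4-fold (1.33 to 1.47). These values fall short of the 2-fold threshold but have intervals that exclude 1. ZNF580 overlaps ZNF581 and CCDC106, ZNF627 overlaps ACP5, and ZNF333 overlaps ADGRE2 and ADGRE3. Over the 66 deep members, the median ratio of highest to lowest library was 1.29, and 6 exceeded 1.5.

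E2A against vector called fewer members than E2-2 against vector, again with most fold values slightly below 1. Of 178 measured members, ZNF816 was the 1 called higher (0.562%, against 4.89% of all measured genes), and 4 were called lower (2.25%, against 1.58%). The median log2 fold was -0.19, against -0.01 over all 13901 measured genes, and 73.0% of the members were below 0. The interval alone placed 12 members above vector (6.74%, against 22.7% of all genes) and 65 below it (36.5%, against 24.2%). Intervals of members were again wider, about 0.31 log2 to each side at the median against 0.20 over all genes, which limits this comparison too. At a 1.5-fold threshold, 6 members were higher (3.37%, against 8.41% of all genes) and 14 lower (7.87%, against 5.01%). ZNF816, whose counts are given above, was 3.15-fold higher with E2A than with vector (1.33 to 8.63). It reached the read minimum in this pair only through its E2A count, so it could enter the comparison only by being high there.

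The 4 members called lower with E2A were ZNF429, ZNF837, ZNF497 and ZNF763. ZNF429 was 2.42-fold lower (1.53 to 3.9) and ZNF497 was 2.36-fold lower (1.42 to 4.02). ZNF837 (58367618 to 58381060), which overlaps no other gene of the table, had 43, 38 and 59 reads in E2-2, E2A and HEB cells and 75 in vector cells, with E2A 2.24-fold lower (1.49 to 3.4). Its E2A level was the lowest of the 4 libraries. ZNF763 (11965037 to 11980381) had 14 reads in each E protein library and 25 in vector cells, with E2A 2.02-fold lower (1.01 to 4.21), an interval that barely excludes 1. At 14 reads in both libraries ZNF763 would have missed the read minimum, so it entered this comparison only through its vector count. Further E2A differences stayed under 2-fold. ZNF473, which encodes a protein of the machinery that trims the ends of histone RNAs, had 411, 646 and 521 reads in E2-2, E2A and HEB cells and 410 in vector cells. E2A was thus the highest library for ZNF473, 1.39-fold above vector (1.23 to 1.58), although the gene overlaps VRK3. ZNF235 stood at 1.75-fold above vector with E2A (1.24 to 2.5), ZNF799 at 1.64-fold (1.19 to 2.27) and ZNF333 at 1.52-fold (1.27 to 1.81). Below vector, ZNF580 had 128, 137 and 194 reads in E2-2, E2A and HEB cells and 219 in vector cells, with E2A 1.81-fold lower (1.46 to 2.26). By CPM, E2A was the lowest library for ZNF580, with 7.75 CPM against 14 CPM in vector cells. ZNF256 was 1.75-fold below vector with E2A (1.39 to 2.21), ZNF329 1.72-fold (1.36 to 2.17), ZNF419 1.61-fold (1.3 to 2.01) and ZNF304 1.56-fold (1.33 to 1.83).

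HEB against vector called the fewest members of the comparisons with vector. Of 178 measured members, 0 were called higher, where 2.55% of all measured genes were, and 3 were called lower (1.69%, against 1.23%). The median log2 fold was -0.11, against 0.01 over all 13695 measured genes, and 68.5% of the members were below 0. The interval alone placed 9 members above vector (5.06%, against 21.1% of all genes) and 46 below it (25.8%, against 16.9%). Here too the intervals of members were wider, about 0.31 log2 to each side at the median against 0.20 over all genes. At a 1.5-fold threshold, 1 member was higher (0.562%, against 4.8% of all genes) and 14 were lower (7.87%, against 3.73%). The 3 called lower were ZNF429, at 2.44-fold (1.53 to 3.98), ZNF221, at 2.06-fold (1.32 to 3.26), and the pseudogene-named ZNF887P. ZNF887P (11648364 to 11652877) had 15, 21 and 15 reads in E2-2, E2A and HEB cells and 29 in vector cells, with HEB 2.05-fold lower (1.06 to 4.12). ZNF429 was the member called lower in all 3 comparisons, which share 1 vector library, so a deviation of that library would enter all 3 alike. The member ranked first on the higher side was ZNF584, with 106, 153 and 206 reads in E2-2, E2A and HEB cells and 136 in vector cells. HEB was 1.43-fold above vector (1.14 to 1.79), and E2-2 held the lowest level of ZNF584. ZNF611 stood at 1.38-fold above vector with HEB (1.13 to 1.68), ZNF235 at 1.61-fold (1.13 to 2.32) and ZNF787 at 1.14-fold (1.03 to 1.26). On the lower side ZNF256 was 1.64-fold below vector (1.31 to 2.07), ZNF552 1.64-fold (1.28 to 2.1), ZNF345 1.63-fold (1.24 to 2.15), ZNF792 1.45-fold (1.23 to 1.72) and ZNF766 1.43-fold (1.26 to 1.62). ZNF568 had 1 read in HEB cells against 9 in vector cells, a 9.55-fold lower level whose interval ran from 1.32 to 419, and the pair held too few reads to count as measured.

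Other groups of genes were set beside the members to show whether small negative values were found elsewhere too. The ZNF genes of other chromosomes, 293 in number, had a median log2 fold of -0.12 with E2-2 (218 measured), -0.06 with E2A (219) and -0.04 with HEB (216). The other genes of chromosome 19 had -0.15 with E2-2 (768 measured), -0.11 with E2A (771) and 0.01 with HEB (761). The chromosome 19 zinc finger medians of -0.22, -0.19 and -0.11 were thus the lowest of these 3 sets in each comparison. Genes that are no members but lie inside the zinc finger clusters had medians of -0.24 (58 measured) with E2-2, -0.19 (63) with E2A and -0.16 (59) with HEB, close to the medians of the members. These genes include zinc finger genes with other names, such as HKR1, so they are not a set free of zinc finger genes. Other chromosome 19 genes outside the clusters had -0.15, -0.10 and 0.02. These differences are descriptions of single libraries.

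**Figure D2:**
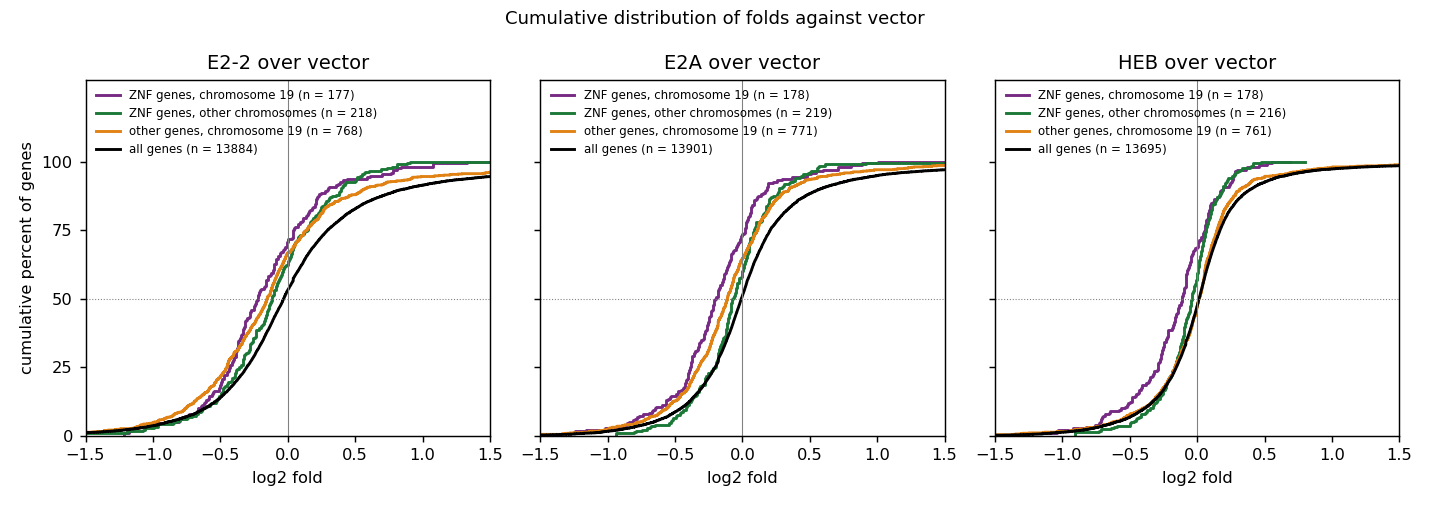
Cumulative share of measured genes (y axis, percent) at or below each log2 fold over vector (x axis) for E2-2, E2A and HEB, drawn for the chromosome 19 zinc finger genes, ZNF genes of other chromosomes, other genes of chromosome 19 and all genes. The chromosome 19 zinc finger curve lies to the left of the curve of all genes around its middle, with medians of -0.22, -0.19 and -0.11 against -0.03, -0.01 and 0.01.

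The order of the 4 libraries was examined for the 164 members with at least 120 reads in all. The vector library held the highest level for 87 of them (53%), against 29.3% of all 12381 such genes and 37.9% of 211 ZNF genes of other chromosomes. It held the lowest level for 21 (12.8%), against 29.6% of all such genes. E2-2 was lowest for 62 (37.8%), close to the 37.6% of all such genes, E2A for 46 (28%, against 17%) and HEB for 35 (21.3%, against 15.8%). The range over the 4 libraries was under 1.5-fold for 124 of the 164 (75.6%), against 69% of all such genes. The vector library was thus highest for more members than any E protein library. All members share this 1 vector library, so a deviation of that library would enter the order of each.

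Position divided the members into 10 clusters of at least 5 genes with neighbours no more than 500 kb apart, which held 247 of them, and 15 scattered genes. Detection differed between clusters. In cluster 10, at the end of the long arm (57191500 to 58481230, ZNF264 to ZNF446), 42 of 43 members held 30 or more reads. Cluster 4 (19668796 to 24129961, ZNF101 to ZNF254) held 41 members, of which 17 reached 30 reads and 5 had none. Cluster 8 (51571298 to 53580269, ZNF175 to ZNF331) held 43 members, of which 20 reached 30 reads and 3 had none. Cluster 4 is where ZNF91 and ZNF93 lie, and cluster 8 is where ZNF816 and ZNF611 lie.

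Cluster 10 had the lowest median in every comparison with vector. Its median log2 fold was -0.39 with E2-2, -0.35 with E2A and -0.28 with HEB. With E2-2, 95% of 40 measured members were below 0, with E2A 87.8% of 41 and with HEB 85.4% of 41, where the shares of all genes were 53.1%, 51.2% and 47.5%. The interval alone placed 25 members below vector and 1 above with E2-2, 23 below and 0 above with E2A, and 18 below and 1 above with HEB. As shares, those below were 62.5% with E2-2 (all genes 30.8%), 56.1% with E2A (24.2%) and 43.9% with HEB (16.9%). Those above were 2.5% with E2-2 (all genes 27.3%), 0% with E2A (22.7%) and 2.44% with HEB (21.1%). Intervals in cluster 10 were wider than over all genes, with E2-2 about 0.31 log2 to each side at the median against 0.21. Fewer of them could therefore exclude 1, on either side. Most differences from vector in cluster 10 were small: the calls there were ZNF497 for E2-2, and ZNF497 and ZNF837 for E2A. ZNF671 was the member above vector with E2-2, at 257, 208 and 211 reads in E2-2, E2A and HEB cells and 195 in vector cells. The genes inside cluster 10 that are no members had medians of -0.34 (12 measured), -0.25 (13) and -0.22 (15), a set that may likewise hold zinc finger genes with other names. Between E proteins the cluster stood near 0, with a median of -0.05 where E2-2 was set against E2A. Set against HEB, E2-2 had -0.12 and E2A had -0.06.

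**Figure D3:**
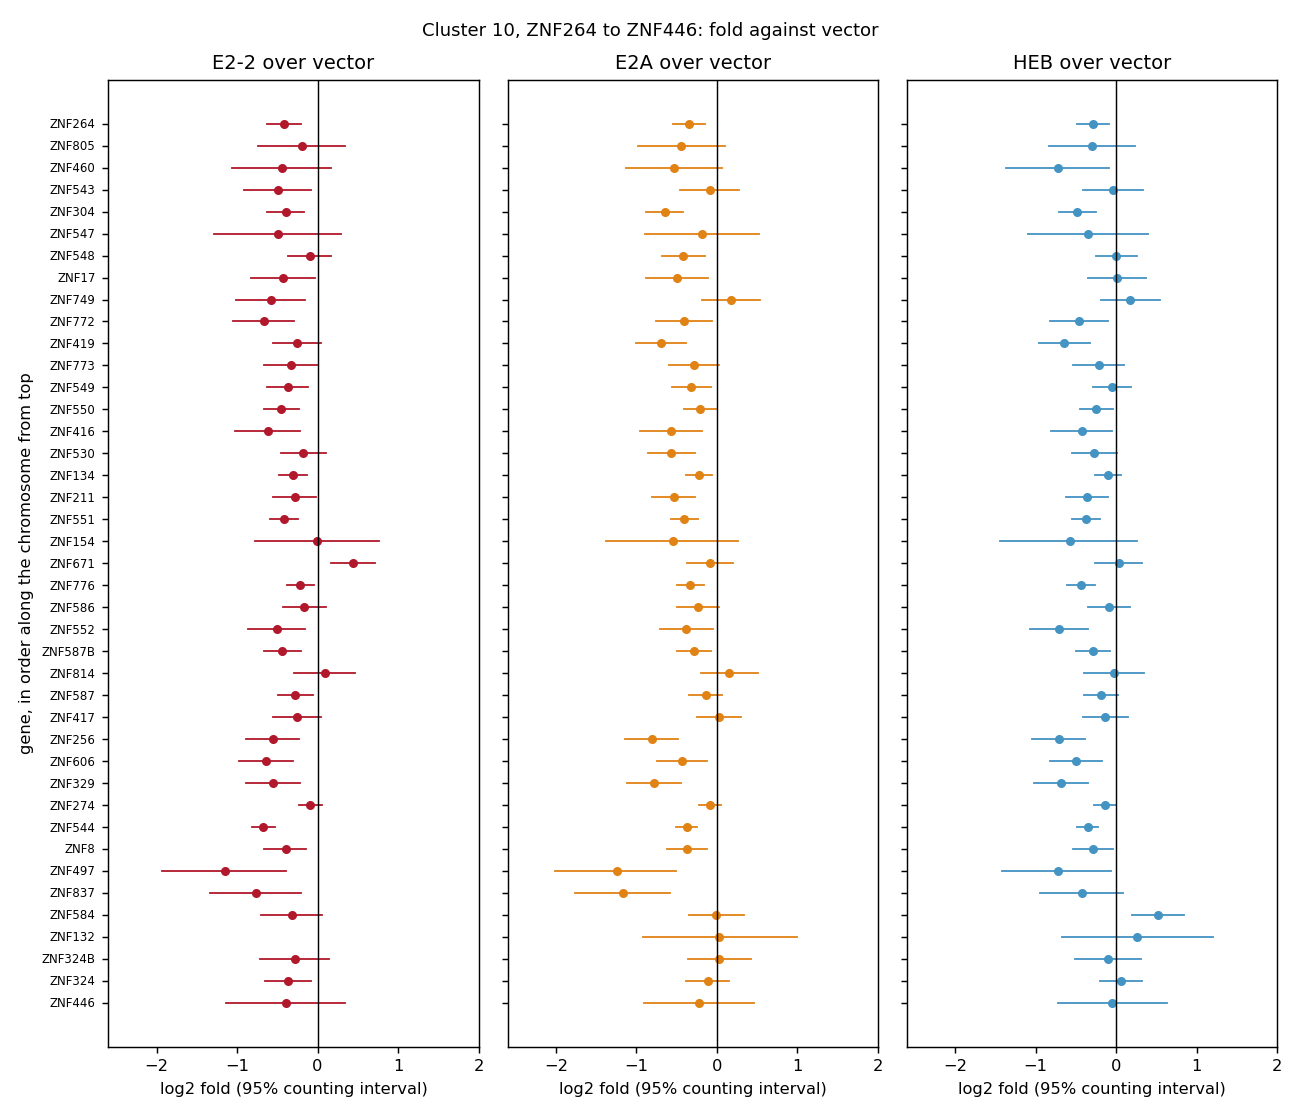
Log2 fold over vector (x axis) of each measured member of cluster 10, in chromosome order down the page, in panels for E2-2, E2A and HEB, with bars for the 95% counting interval. Most points lie below 0 in all 3 comparisons, and the medians are -0.39, -0.35 and -0.28.

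Across the other clusters the values were smaller and varied by factor. Cluster 6 (36182060 to 37817300, ZNF565 to ZNF573), which holds ZNF146, ZNF571 and ZNF568, had medians of -0.35 with E2-2, -0.14 with E2A and -0.11 with HEB. Cluster 7 (43525497 to 44500524, ZNF575 to ZNF180) had 0.08 with E2-2, -0.25 with E2A and -0.14 with HEB, and it was the cluster with a positive median for E2-2. Directly compared, cluster 7 stood at 0.23 for E2-2 against E2A and 0.09 for E2-2 against HEB. Its members include ZNF226, with 368, 305 and 290 reads in E2-2, E2A and HEB cells and 351 in vector cells, and ZNF221, which was called lower with E2-2. Cluster 9 (55476332 to 56671783) had -0.23, -0.25 and -0.09 for E2-2, E2A and HEB, and cluster 2 (8509678 to 9793180) had -0.22, -0.14 and -0.05. Cluster 3 (11483427 to 12640098), which holds ZNF799, ZNF491, ZNF439 and ZNF443, had -0.06, -0.14 and -0.15. Cluster 4 had -0.06, -0.13 and -0.06, cluster 8 had -0.12, -0.13 and -0.05, cluster 5 had -0.12, -0.07 and -0.17, and cluster 1 had -0.12, -0.02 and 0.07. The 15 scattered genes had -0.22, -0.04 and -0.10.

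**Figure D4:**
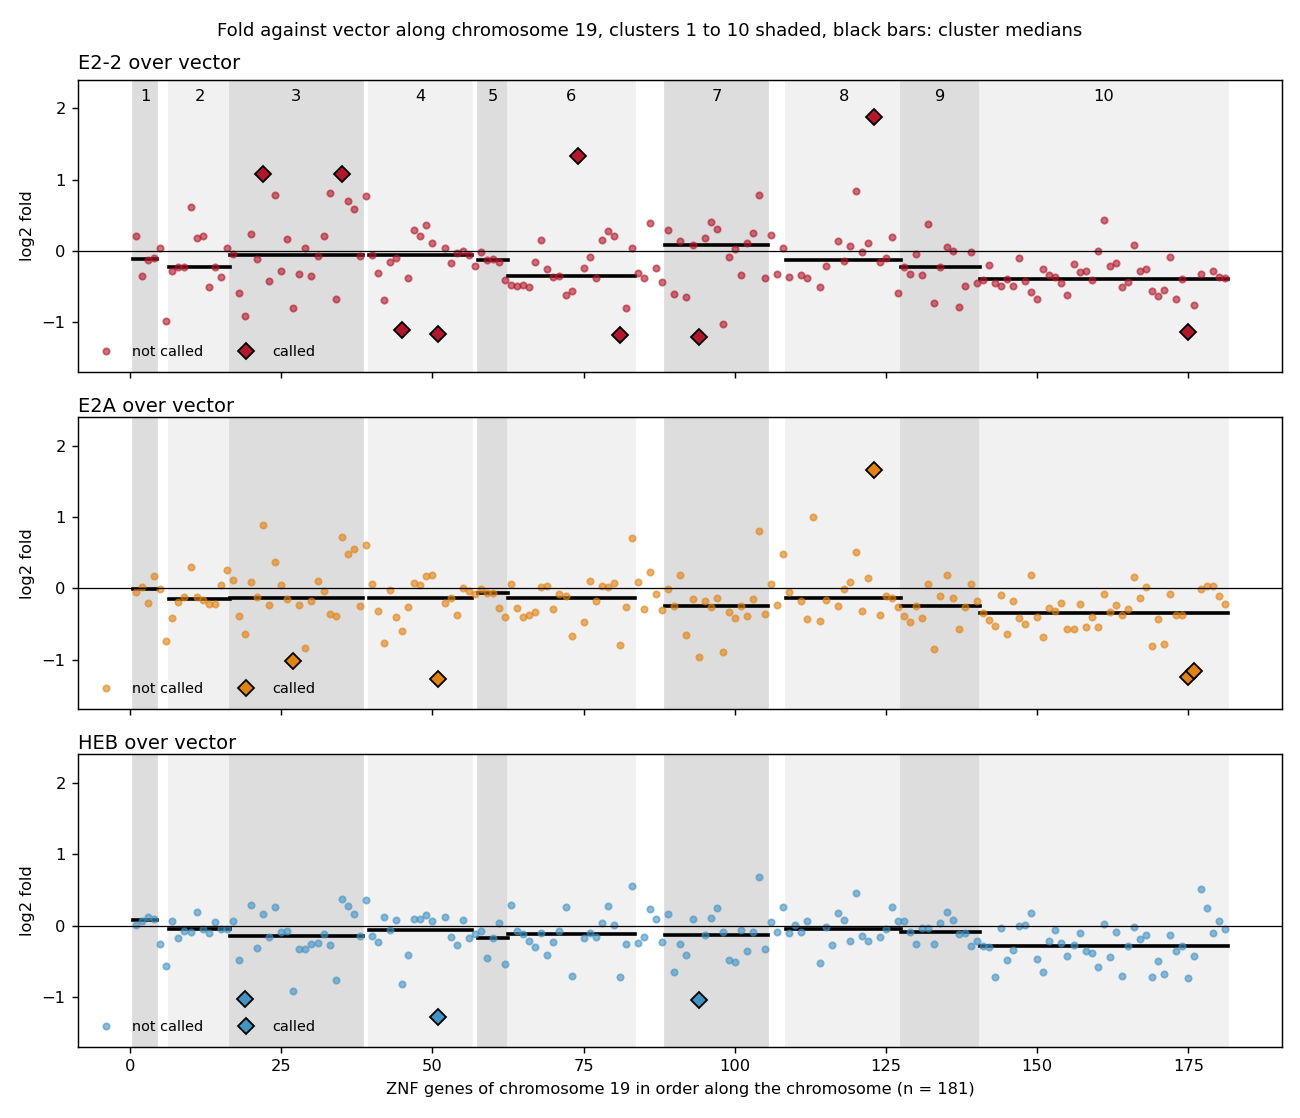
Log2 fold over vector (y axis) of every measured member in order along chromosome 19 (x axis, member rank), in panels for E2-2, E2A and HEB. Shading marks the 10 clusters, black bars their medians, and diamonds called members. Cluster 10, the last one, has medians of -0.39, -0.35 and -0.28, and called members are few in every panel.

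The member with most reads in each cluster gave the most precise values. In clusters 10 and 6 these were ZNF544 and ZNF146, 1.59-fold and 1.4-fold below vector with E2-2 as given above. ZNF266 in cluster 2 had 1470, 1319 and 1341 reads in E2-2, E2A and HEB cells and 1308 in vector cells, with E2-2 1.16-fold above vector (1.07 to 1.25). ZNF788 in cluster 3 had 578, 759 and 668 reads in the E protein libraries and 757 in vector cells, with E2-2 1.27-fold below vector (1.14 to 1.42). ZNF100 in cluster 4 had 656, 648 and 761 reads against 658 in vector cells, and ZNF302 in cluster 5 had 618, 722 and 650 against 645. Both stood at most 1.15-fold from vector in each comparison. ZNF480 in cluster 8 was 1.15-fold below vector with E2-2 (1.04 to 1.27), ZNF180 in cluster 7 1.31-fold (1.13 to 1.51) and ZNF555 in cluster 1 1.27-fold (1.04 to 1.56). ZNF787 in cluster 9 was 1.04-fold above vector with E2-2, with an interval that included 1 (0.933 to 1.16).

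Members with known roles were given whatever their values. ZNF91, which represses SVA elements and some LINE elements, had 80, 73 and 74 reads in E2-2, E2A and HEB cells and 84 in vector cells. ZNF93, which represses LINE elements, had 117, 111 and 145 reads in E2-2, E2A and HEB cells and 129 in vector cells. For both, no library was apart from vector by more than 1.32-fold, the value of ZNF93 with E2A, which was below vector (1.01 to 1.71). The LINE-binding ZNF649 had 17, 22 and 22 reads in the E protein libraries and 22 in vector cells, and ZNF765 had 6, 6 and 3 against 4, too few to compare. ZNF274, which brings SETDB1 to the ends of zinc finger genes, had 768, 898 and 809 reads in E2-2, E2A and HEB cells and 840 in vector cells. Its levels were 50.6, 50.8 and 48.9 CPM against 53.9 CPM with vector, and all 3 intervals included 1. ZNF224, a KRAB protein that acts as a partner of WT1, had 212, 209 and 176 reads in E2-2, E2A and HEB cells and 232 in vector cells, and HEB was 1.4-fold below vector (1.14 to 1.71). Its neighbour ZNF225 had 135, 115 and 101 reads in E2-2, E2A and HEB cells and 136 in vector cells, and HEB was 1.43-fold below vector (1.1 to 1.87). E2A was below vector too, 1.26-fold for ZNF224 (1.04 to 1.52) and 1.34-fold for ZNF225 (1.04 to 1.73). With E2-2, the intervals of both genes included 1. ZNF331, an imprinted gene in human, had 97, 142 and 166 reads in E2-2, E2A and HEB cells and 150 in vector cells, with E2-2 the lowest library at 1.5-fold below vector (1.16 to 1.96). ZNF382, ZNF154, ZNF132 and ZNF582 are genes known to be silenced by promoter methylation in some tumours, as is ZNF671. ZNF382 had 256, 272 and 234 reads in the E protein libraries and 237 in vector cells, and its 3 intervals against vector included 1. ZNF154 had 30, 24 and 22 reads against 31, and ZNF582 had 48, 65 and 83 reads against 85. For ZNF582, E2-2 was 1.72-fold below vector (1.19 to 2.51) and E2A 1.48-fold (1.06 to 2.08), while the HEB interval included 1. The gene overlaps ZNF542P.

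In direct comparisons between E proteins few members were called. For E2-2 against E2A, 1 of 177 was called higher (0.565%, against 3.63% of all genes) and 0 lower (against 1.61%), with a median log2 fold of -0.02, beside -0.01 over all genes. The 1 was ZNF563, with 29 reads in E2-2 cells against 15 in E2A cells, or 2.25-fold (1.17 to 4.52). ZNF563 also had 15 reads in HEB cells and 17 in vector cells, and its interval for E2-2 against vector included 1 (1.75-fold, 0.932 to 3.4). For E2-2 against HEB, ZNF816 (2.73-fold, 1.27 to 6.36) and ZNF563 (2.11-fold, 1.09 to 4.23) were called higher, 2 of 176 (1.14%, against 6.09% of all genes). ZNF816 reached the read minimum in this pair only through its E2-2 count. ZNF132 was the 1 called lower (0.568%, against 1.57%), with 9 reads in E2-2 cells against 24 in HEB cells, 2.44-fold (1.1 to 5.97). It reached the read minimum only through its HEB count. ZNF132 had 22 reads in E2A cells and 19 in vector cells, so E2-2 was its lowest library. The median was -0.06, beside -0.03 over all genes. For E2A against HEB, ZNF816 was the 1 of 176 called higher, at 2.34-fold (1.09 to 5.46), where 2.38% of all genes were called higher. There it reached the read minimum only through its E2A count. None was called lower in that comparison, where 0.696% of all genes were, and the median was -0.04 beside -0.01 over all genes.

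The ranked members that were not called in the direct comparisons follow, with folds under 2 by selection. ZNF584 was 1.78-fold lower with E2-2 than with HEB (1.4 to 2.27) and ZNF749 was 1.69-fold lower with E2-2 than with E2A (1.28 to 2.26). ZNF749 had 76 reads in E2-2 cells, 150 in E2A cells, 140 in HEB cells and 117 in vector cells, and E2-2 was the lowest library. ZNF473 was 1.35-fold lower with E2-2 than with E2A (1.19 to 1.53), and ZNF562 was 1.34-fold lower (1.17 to 1.53). ZNF266 stood 1.3-fold above E2A with E2-2 (1.2 to 1.4), ZNF226 1.41-fold (1.2 to 1.64) and ZNF230 1.59-fold (1.2 to 2.13). E2A stood above HEB for ZNF428, at 1.36-fold (1.11 to 1.67), and for ZNF83, at 1.23-fold (1.1 to 1.38). E2A stood below HEB for ZNF580, at 1.51-fold (1.21 to 1.9), for ZNF616, at 1.4-fold (1.2 to 1.64), and for ZNF414, at 1.4-fold (1.18 to 1.67). E2-2 stood above HEB for ZNF799, at 1.63-fold (1.23 to 2.17), and for ZNF439, at 1.43-fold (1.22 to 1.68), and below HEB for ZNF146, at 1.33-fold (1.26 to 1.4). None of these reached 2-fold, since the members that did so were called and are given above. At a 1.5-fold threshold, 2 members were higher and 1 lower with E2-2 against E2A (all genes 6.91% and 4.15%). With E2-2 against HEB, 5 were higher and 7 lower (10.7% and 6.03%), and with E2A against HEB, 1 was higher and 3 lower (5.21% and 2.51%).

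The corepressor machinery that KRAB proteins use was listed as 25 genes, all of them measured, and 0 were called higher and 0 lower in each comparison with vector. Over all genes, 8.45% were called higher and 3.55% lower with E2-2, 4.89% and 1.58% with E2A, and 2.55% and 1.23% with HEB, shares at which few calls would fall among 25 genes. Its median log2 fold was -0.06 with E2-2, -0.04 with E2A and 0.01 with HEB, near the medians of all genes. TRIM28, the corepressor itself, had 8270 reads in E2-2 cells, 11081 in E2A cells, 11018 in HEB cells and 10485 in vector cells, or log2 folds of -0.30, -0.10 and -0.01. SETDB1, the methyltransferase, had 816, 975 and 822 reads in E2-2, E2A and HEB cells and 830 in vector cells, with log2 folds of 0.02, 0.05 and -0.10. CBX5, a heterochromatin protein, had 3478 reads in E2-2 cells, 4235 in E2A cells, 2119 in HEB cells and 2048 in vector cells. Its log2 folds of 0.80, 0.87 and -0.04 placed E2-2 and E2A above HEB and vector without reaching 2-fold. Other genes of the list differed too: UHRF1 was 1.75-fold above vector with E2A (1.67 to 1.83), and EHMT2 1.36-fold below with E2-2 (1.25 to 1.48). The interval alone placed 24% of the list above vector and 40% below with E2-2 (all genes 27.3% and 30.8%). With E2A the shares were 32% and 28% (22.7% and 24.2%), with HEB 28% and 24% (21.1% and 16.9%). The list had narrower intervals than all genes, which exclude 1 more often. Zinc finger genes of chromosome 19 with other names, such as HKR1 and MZF1, formed a list of 20, of which 19 were found and 11 measured. None of the 11 was called in any comparison with vector, a count from which nothing can be read at the background shares of calls given above. Their medians were -0.52 with E2-2, -0.38 with E2A and -0.18 with HEB. HKR1 had 273, 358 and 342 reads in E2-2, E2A and HEB cells and 478 in vector cells, with log2 folds of -0.77, -0.60 and -0.57. MZF1, a factor first described in myeloid cells, had 463, 594 and 655 reads in E2-2, E2A and HEB cells and 720 in vector cells, with log2 folds of -0.60, -0.46 and -0.22.

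A RefSeq promoter of 300 bases was found for 213 of the 262 members. On either strand, the E-box CANNTG occurred in 119 of these (55.9%), against 24117 of all 35116 promoters (68.7%). CAGCTG, which is 1 form of CANNTG, occurred in 37 (17.4%), against 17.9% of all promoters. CACCTG or its reverse complement CAGGTG, further forms of CANNTG, occurred in 32 (15%), against 20.6%. The member promoters had a median GC content of 60%, against 58.7%, and a median of 20 CpG dinucleotides, against 14. Members with CAGCTG in the window had a median log2 fold over vector of 0.02 with E2-2 (24 measured), against -0.23 for those without (133). The same medians were 0.00 with (24) and -0.22 without (134) for E2A, and -0.02 with (24) and -0.11 without (133) for HEB. For CACCTG or CAGGTG no such gap was seen: the medians were -0.21 with (26) and -0.22 without (131) for E2-2, -0.14 (27) and -0.19 (131) for E2A, and -0.11 (26) and -0.10 (131) for HEB. Members with any CANNTG did not follow the CAGCTG order for E2-2: the median was -0.22 with none (69 measured), -0.32 with 1 (52) and -0.08 with more than 1 (36). For E2A the medians were -0.21 with none, -0.22 with 1 and -0.14 with more, and for HEB -0.10, -0.11 and -0.10. Windows with CAGCTG were not spread evenly by position. Many belong to members of cluster 4 and few to members of cluster 10, whose E2-2 medians were -0.06 and -0.39. The part of position in the CAGCTG gap was not tested. A match of letters is a description of the window, and whether a factor was bound there was not examined.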

How the data were processed

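RNA came from TRIzol extracts of the sorted cells and was made into TruSeq libraries, per the labels' protocols. Tools in the submitters' processing notes are HTSeq 0.9.1, TopHat2 2.0.9, MACS2 2.1.1.20160309 and Bowtie2 2.2.9, and the builds there are hg19 and hg38, with no role given. Neither the annotation nor the strand setting is given in the sources used here. The authors deposited 1 table of whole-number read counts per gene with FPKM values beside them, per the file headers. Reads that cross near-identical zinc finger genes may have been split or dropped by that counting.

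Members were found by name and by the table's chromosome. All 262 identifiers were in a gene symbol table. Of the symbols, 256 matched a RefSeq gene of GRCh38.p14, 243 of them protein coding and 13 pseudogenes, and all 256 overlapped it in position. The members and lists were chosen with earlier results of these data known.

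Scaling used edgeR's TMM (edgeR 4.0.16, R 4.3.3) over the 4 libraries. Intervals are exact conditional binomial (Clopper-Pearson) and cover counting error only, because each group is 1 library. Counted reads may be copies of 1 molecule, which would make these intervals too narrow. Zero counts were set to 3 reads. Pairs in which neither count exceeded 3 got no fold. Genes named against vector are the 10 highest and 10 lowest by the interval bound nearest to 0; in direct comparisons, the 3 highest and 3 lowest; also every called member, the member with most reads in each cluster, and 14 genes with known roles. Not every ranked gene is printed. Python 3.11.15, numpy 2.4.6, scipy 1.17.1, pandas 2.3.3 and matplotlib 3.10.9 were used. Alternatives were DESeq2 1.42.0 size factors, library totals, FPKM, other read minimums, a 1.5-fold threshold, other cluster gaps and, chosen after seeing the data, members without overlaps.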

Additional observations from a re-analysis of the deposited data

How the results depend on the processing

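Counts of called members rest on few reads and on the fold threshold. Under DESeq2 size factors, library totals and the authors' FPKM, every count of calls stayed within 1.5 times its value. FPKM ratios differed from those under library totals by 0.000937 log2 at most, so FPKM is no separate check. DESeq2 size factors and library totals each shift all folds of a comparison by the same amount, 0.0546 log2 at most. Little change in the calls was therefore possible under them. Over all alternatives run, the members' median log2 fold stayed between -0.24 and -0.18 with E2-2, -0.20 and -0.17 with E2A and -0.16 and -0.10 with HEB, each over vector. E2-2 set against E2A gave 0.01 under library totals and FPKM, beside -0.02. With at least 100 reads in the pair of libraries, E2-2 against vector had 1 higher and 1 lower, E2A against vector 0 higher and 1 lower, and HEB against vector 0 lower. The direct comparisons then had 0 calls in either direction. With no minimum of reads, HEB against vector had 5 lower, E2-2 against E2A 2 lower, E2-2 against HEB 5 higher and E2A against HEB 2 higher. With a 1.5-fold threshold, E2-2 against vector had 9 higher and 19 lower, E2A against vector 6 higher and 14 lower, and HEB against vector 1 higher and 14 lower. In the direct comparisons that threshold gave 2 higher and 1 lower for E2-2 against E2A, 5 higher and 7 lower for E2-2 against HEB, and 3 lower for E2A against HEB. Without members that overlap another gene, a choice made after seeing the data, E2-2 against vector had 1 higher and 1 lower, E2A against vector 0 higher and 1 lower, HEB against vector 1 lower, E2-2 against HEB 1 higher and E2A against HEB 0 higher. By construction, the calls lost at 100 reads were of members with fewer reads than that. The share of all genes called was not computed at other read minimums or for genes without overlaps. Those counts therefore have no background beside them. Other cluster gaps shifted some cluster medians. In all 60 values, the shift was smaller than the reach of the cluster's intervals to either side at the median. With E2-2, cluster 2 had a median of -0.09 (8 genes) with gaps of up to 250 kb, beside -0.22 (10). With gaps of up to 1000 kb, clusters 9 and 10 merged at -0.36 (53), beside -0.23 and -0.39. With HEB the merged pair had -0.22, beside -0.09 for cluster 9, and with E2A cluster 9 had -0.16 at 250 kb, beside -0.25. No paired analysis was possible because each group is 1 library. Differences between cultures were not measured, and 81 members had too few reads for any comparison.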
